A study of Homo sapiens with 6 samples.

Results

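The genes described here are those on which both treatments of the study moved together: every gene whose 4 treated arrays were all above or all below the pair of controls, here called 1-sided genes. The arrays were Affymetrix Human Gene 2.0 ST arrays of RNA from C4-2, a prostate cancer cell line derived from LNCaP, grown in medium with hormones. Of 14812 genes with a symbol, 5195 had a mean log2 intensity above 6 over the 6 arrays, and 2932 of these were 1-sided. All 4 treated arrays lay above both controls for 1678 genes (32.3% of the 5195) and below both for 1254 (24.1%). A gene's gap is the log2 distance between the nearest treated array and the nearest control.

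There were 2 arrays in each of 3 groups, labelled as biological replicates. The control cells received DMSO. The treated cells either received 1 µM NU7441, which blocks the ATP site of the kinase DNA-PKcs, for 24 h, or were transfected for 96 h with pooled siRNAs to deplete PRKDC, the gene of DNA-PKcs, transiently. The protocol text also mentions control siRNA pools, but the only control label is DMSO, so the knockdown arrays have no control labelled as transfected, and transfection, time and depletion cannot be told apart in them. The depleted transcript itself, PRKDC, was not analysed here. Errors given as ± are the moderated standard errors that limma estimates for log2 differences (n = 2 arrays per group). The labels do not say that replicates came from separate cultures, so p-values measure the spread between these arrays.

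DNA-PKcs joins the Ku heterodimer on broken DNA ends and drives their rejoining without a template. It belongs to the PI3K-like kinases, with ATM, ATR and mTOR, and NU7441 was developed as a selective inhibitor of it within that family. In prostate cancer cells DNA-PKcs is also known as a partner of the androgen receptor and as a regulator of transcription.

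The NU7441 arrays stood apart at the dim end of the scale. On the deposited scale, whose lowest value is 16, the median intensity was 31.5 and 31.6 on the control arrays, 24.6 and 26.0 with NU7441 and 28.4 and 27.6 after knockdown. The number of probesets within 0.01 of 16 was 452 and 444 on the controls, 3797 and 1471 with NU7441 and 973 and 1206 after knockdown. After quantile normalization the median SD of log2 values between replicates was 0.0803 for control, 0.197 for NU7441 and 0.104 for knockdown. The part of the dim end in the differences below was not tested. The line was checked against markers: summed intensities of 6 luminal prostate markers were 2319 to 3247 on the 6 arrays, and those of 4 leukocyte, 3 stromal and 6 endothelial markers were at most 232, 146 and 282. On the control, NU7441 and knockdown arrays the endothelial sums were 265 to 282, 137 to 151 and 181 to 207. In the same order the leukocyte sums were about 232, about 189 and 203 to 228. The stromal sums were 103 to 123, 79 to 93 and 91 to 146. The part of these other cell types in the results was not tested.

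In a fit with 1 mean for each of the 3 groups, the mean of both treatments differed from control at an adjusted p under 0.05 (limma, Benjamini-Hochberg over 5195 genes) for 1389 genes that were higher (26.7%) and 1083 that were lower (20.8%). These 2 shares are the background for every list count below. Of the 2932 1-sided genes, 2212 passed this test, 1233 higher and 979 lower. The 1-sided rule uses the same values as that test, so these counts describe the contrast and are no independent support for it. The test also depended strongly on how the arrays were used. With the 4 treated arrays fitted as 1 group, in which the distance between the treatments counts as spread, 3 genes passed (HNRNPA1P10, BRD7 and RPS27, all lower) and 1630 had an unadjusted p under 0.05. Without control replicate 1 or control replicate 2, 315 and 296 genes passed, and without knockdown replicate 2, 1221. With 1 control left, that array is assumed to vary like the other groups.

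Some genes passed the filter on mean intensity only through the arrays on which they were high, and so had to differ. These were 259 higher genes whose control mean was 6 or below and 141 lower genes whose treated mean was. Of the genes described below they include ADPRM, ARID1A, CALCOCO1, CFAP69, DDIT3, DUSP1, GRN, HMOX1, IGF1R, IRF7, KLHL24, MON1B, MYORG, NMB, RNF170, SSH3, TP53I13 and VPS9D1 among the higher, and ASF1B, C9orf78, CCP110, DST, FOXO1, HOXD1, MICB, MIR3200, MIR4525 and SLFNL1-AS1 among the lower. Values and tests of these genes describe the selection and support nothing further.

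The direction of the set as a whole depended on scaling. Lower genes made up 42.8% of the 1-sided set after quantile normalization. They made up 42.3% on the intensities as deposited and 23.4% after median centring, which raised the median difference of all genes from 0.12 to 0.35. Among the calls of the test, lower genes were 43.8% after quantile normalization and 20.1% after median centring. Of the 2212 genes that were 1-sided and called, 208 (87 higher, 121 lower) also passed the test, in the same direction, without each of the 6 arrays in turn and under both other scalings. Genes below are said to hold in every such setting where they are among these 208.

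Both treatments contributed unequally. The median log2 difference from control over the 1678 higher genes was 0.67 with NU7441 and 0.37 after knockdown, and over the 1254 lower genes it was -0.91 and -0.44. NU7441 replicate 1 was the treated array farthest from the controls for 1782 of the 2932 genes, and knockdown replicate 1 was the nearest for 1553. Taken against control separately, the treatments gave 3165 called genes for NU7441 (60.9%) and 372 for knockdown (7.16%). These comparisons share their control arrays, so they are given side by side only.

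The largest gap of any lower gene that the naming rule admits belonged to BRD7, a bromodomain subunit of the PBAF form of the SWI/SNF chromatin remodelling complex. Its log2 intensity was 9.20 and 9.13 on the control arrays, 7.25 and 7.28 with NU7441 and 7.31 and 7.29 after knockdown. The 4 treated arrays nearly coincided, and the nearest lay 1.82 below the nearest control. BRD7 fell by 1.88 ± 0.11 (adjusted p = 0.000323), with -1.90 for NU7441 and -1.86 for knockdown. It held in every setting, and in the 2-group fit its adjusted p was 0.00582.

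Among higher genes that the naming rule admits and that stand for a gene with no near-identical copies, GDF15 had the largest gap. GDF15 encodes a secreted stress cytokine of the TGF-beta family and is a known target of both ATF4 and p53. Its log2 intensity was 8.09 and 8.09 on the control arrays, 9.18 and 9.23 with NU7441 and 9.19 and 9.10 after knockdown. The controls were nearly identical, and the treated arrays clustered at least 1.01 above them. GDF15 rose by 1.09 ± 0.09 (adjusted p = 0.000972), with 1.11 for NU7441 and 1.06 for knockdown. It held in every setting above, and its adjusted p was 0.0578 in the 2-group fit. FOXD4L6, a forkhead gene, had a larger gap of 1.11 and a difference of 1.25 ± 0.14, but its family has near-identical copies that a probeset may not tell apart.

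**Figure D1:**
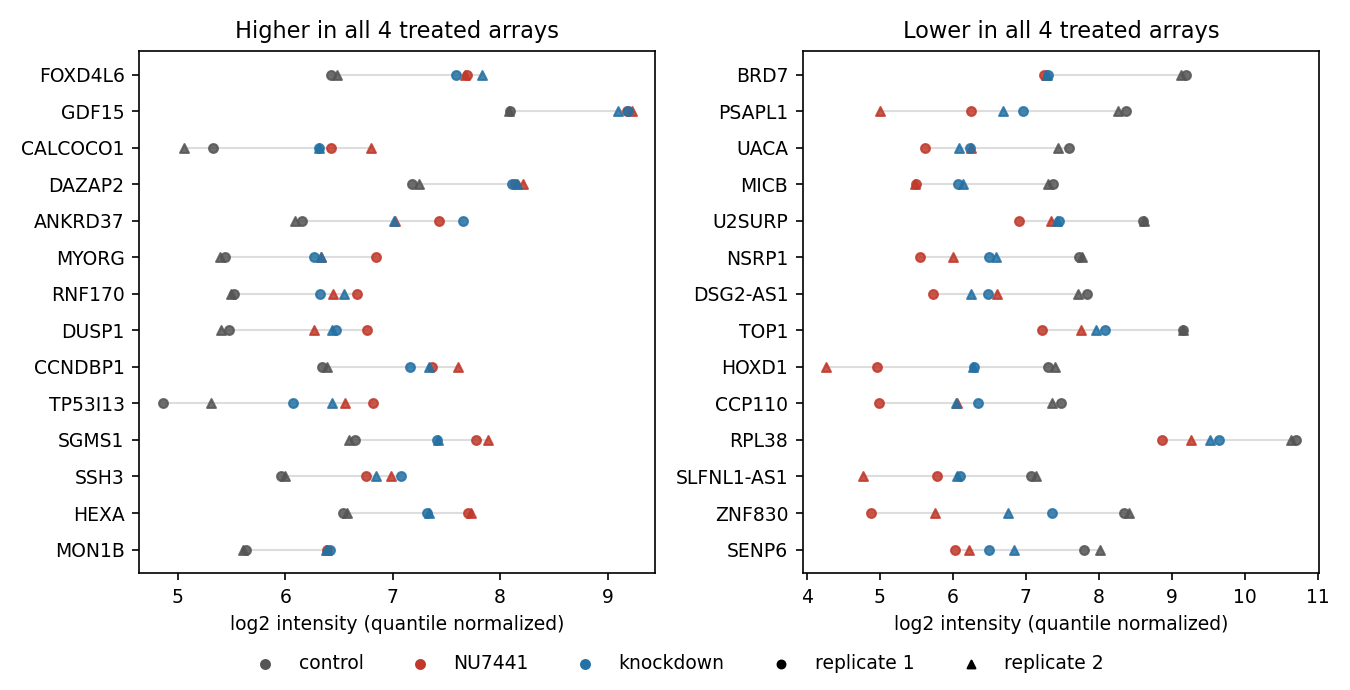
Log2 intensity after quantile normalization (horizontal axis) of the 14 higher and 14 lower genes with the largest gap between the nearest treated array and the nearest control; grey is control, red NU7441 and blue knockdown, with circles for replicate 1 and triangles for replicate 2. In BRD7 and GDF15 the 4 treated arrays nearly coincide, while in HOXD1 and ZNF830 the NU7441 arrays lie far beyond the knockdown arrays.

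Among the other higher genes with large gaps, DUSP1, a phosphatase that switches off MAP kinases, read 5.48 and 5.41 on the control arrays, 6.76 and 6.27 with NU7441 and 6.47 and 6.44 after knockdown. All 4 treated arrays were at least 0.80 above the controls, and the difference was 1.04 ± 0.20 (adjusted p = 0.00637), but with control values below 6 the gene entered the test only through its treated arrays. ANKRD37, a gene known to be induced by hypoxia, read 6.15 and 6.09 on the control arrays, 7.43 and 7.02 with NU7441 and 7.65 and 7.01 after knockdown. Its treated arrays were spread, but none reached the controls, and it rose by 1.16 ± 0.21 (adjusted p = 0.00561). CALCOCO1, an autophagy receptor, rose by 1.27 ± 0.20, and RNF170, a ubiquitin ligase of the endoplasmic reticulum, by 0.99 ± 0.18. SGMS1, a sphingomyelin synthase, rose by 1.00 ± 0.13, and SSH3, of the slingshot phosphatases that act on cofilin, by 0.94 ± 0.16. DAZAP2 rose by 0.94 ± 0.12, MYORG by 1.03 ± 0.20, CCNDBP1 by 1.00 ± 0.15, TP53I13 by 1.39 ± 0.22 and MON1B, part of a Rab7 exchange factor, by 0.77 ± 0.17. Like DUSP1, the genes CALCOCO1, RNF170, SSH3, MYORG, TP53I13 and MON1B entered the test only through their treated arrays. Of these 11 genes, DAZAP2 and SGMS1 held in every setting, and the other 9 did not.

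Among the other lower genes with large gaps, U2SURP, a protein associated with the U2 particle of the spliceosome, read 8.60 and 8.62 on the control arrays, 6.91 and 7.35 with NU7441 and 7.46 and 7.43 after knockdown. Its controls nearly coincided, and the treated arrays were 1.14 or more below them. TOP1, the topoisomerase that relaxes DNA ahead of polymerases, read 9.16 and 9.16 on the control arrays, 7.22 and 7.77 with NU7441 and 8.09 and 7.97 after knockdown. It fell by 1.40 ± 0.16 (adjusted p = 0.00188), and U2SURP fell by 1.32 ± 0.15 (adjusted p = 0.00188). The splicing regulator NSRP1 changed by -1.59 ± 0.18, the SUMO protease SENP6 by -1.51 ± 0.17 and ZNF830 by -2.19 ± 0.27. MICB, a stress ligand that natural killer cells recognise, read 7.37 and 7.31 on the control arrays, 5.49 and 5.48 with NU7441 and 6.07 and 6.14 after knockdown. The NU7441 arrays of MICB lay below the knockdown arrays, and the difference from control was -1.54 ± 0.16 (adjusted p = 0.00158). MICB passed in every setting too, but it entered the test only through its control arrays, so its calls describe the selection. HOXD1, CCP110 and SLFNL1-AS1 entered the test in the same way. U2SURP, TOP1, NSRP1, SENP6 and ZNF830 held in every setting. PSAPL1 (-2.08 ± 0.31) and the ribosomal protein gene RPL38 (-1.34 ± 0.11) also did. UACA (-1.47 ± 0.21), HOXD1 (-1.91 ± 0.23), CCP110 (-1.56 ± 0.29) and the antisense genes DSG2-AS1 (-1.51 ± 0.24) and SLFNL1-AS1 (-1.43 ± 0.28) did not.

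Some lower genes with large gaps are small RNA genes, pseudogenes or an unnamed reading frame, which the naming rule leaves out. The genes of this paragraph were chosen after their values were seen. HNRNPA1P10, a transcribed pseudogene of the splicing factor gene HNRNPA1, read 12.28 and 12.20 on the control arrays, 10.57 and 10.40 with NU7441 and 10.39 and 10.27 after knockdown. It was among the brightest 1-sided genes and fell by 1.84 ± 0.06 (adjusted p = 8.42e-06, and 0.000172 in the 2-group fit). The probeset named HNRNPA1 itself read 8.12 and 8.14 on the control arrays, 8.42 and 8.55 with NU7441 and 8.22 and 8.10 after knockdown, with the treated arrays on both sides of the higher control, and its difference was 0.20 ± 0.11 (adjusted p = 0.169). A pseudogene and its parent can share probe sequence, so which transcript the HNRNPA1P10 probeset measured is uncertain. C9orf78 differed by -1.69 ± 0.28 (adjusted p = 0.00398), but it entered the test only through its control arrays. The higher gene B2M, the light chain of MHC class I, is protein-coding and was not among the 14 higher genes with the largest gaps. It read 8.91 and 8.81 on the control arrays, 9.66 and 9.74 with NU7441 and 9.64 and 9.66 after knockdown and rose by 0.81 ± 0.08 (adjusted p = 0.00158). HNRNPA1P10 and B2M held in every setting, and C9orf78 did not.

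Of 26 microRNA genes with a mean above 6, 19 were 1-sided. Of these, 7 were higher and 12 lower, against 32.3% and 24.1% of all genes. The lower MIR3200, MIR4525, MIR449B, MIR644A, MIR3935, MIR1976, MIR1538, MIR656 and MIR548C passed the filter only through their control arrays. The higher MIR3619, MIR103A2 and MIR4458 passed it only through their treated arrays. The counts therefore largely describe the selection. MIR3200 and MIR4525 had the largest gaps. Their mature sequences from RefSeq (GRCh38.p14) are shown with the seed, bases 2 to 8, in capitals. Both arms of MIR3200 are given, because its probeset is annotated to the gene and does not tell them apart. No pair of the sequences shares a seed. The sequences lie at chr22:30731569-30731590 (+), chr22:30731610-30731631 (+) and chr17:82668281-82668301 (-).
hsa-miR-3200-5p: aAUCUGAGaaggcgcacaaggu
hsa-miR-3200-3p: cACCUUGCgcuacucaggucug
hsa-miR-4525: gGGGGGAUgugcaugcugguu
MIR3200 read 8.47 and 8.34 on the control arrays, 5.67 and 5.03 with NU7441 and 6.53 and 6.67 after knockdown, and MIR4525 read 7.61 and 7.73 on the control arrays, 5.11 and 5.62 with NU7441 and 6.04 and 6.07 after knockdown. In both, the knockdown arrays lay between the controls and the NU7441 arrays. MIR3200 fell by 2.43 ± 0.20 (adjusted p = 0.000952) and MIR4525 fell by 1.96 ± 0.19 (adjusted p = 0.00158). Both passed in every setting, but they entered the test only through their control arrays, so these tests describe the selection. The cDNA was amplified from total RNA, and how far these values follow the mature microRNAs was not tested.

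Genes of mitosis were lower throughout. This list holds the kinases, cyclins, checkpoint proteins, motors and condensins with which cells enter mitosis and separate chromosomes. Of 30 listed genes 24 had a mean above 6, all 24 were below both controls on all 4 treated arrays, and all 24 fell at an adjusted p under 0.05, against 20.8% of all genes tested. KIF20A passed the filter only through its control arrays, and the other 23 all fell. The median difference of the 24 was -1.13, against 0.12 over all 5195 genes, and ran from -1.99 for SMC2 to -0.43 for BIRC5. By array, the median distance from the control mean was -1.76 and -1.64 with NU7441 and -0.38 and -0.46 after knockdown. After median centring 22 of the 24 still passed and 15 were 1-sided. Without control replicate 1 or 2, 14 and 13 passed. The 13 that held in every setting were AURKB, BUB1B, CCNA2, CCNB1, CCNB2, CDCA8, KIF23, NDC80, NUSAP1, PLK1, SMC2, SMC4 and TOP2A.

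NUSAP1, which bundles spindle microtubules, had the largest gap of these genes and read 9.01 and 8.93 on the control arrays, 6.62 and 7.12 with NU7441 and 8.05 and 7.77 after knockdown. SMC2, the core ATPase of condensin, read 8.83 and 9.02 on the control arrays, 5.77 and 6.38 with NU7441 and 8.10 and 7.50 after knockdown. The spindle checkpoint kinase TTK read 7.61 and 7.58 on the control arrays, 5.25 and 6.09 with NU7441 and 6.97 and 6.92 after knockdown. In all 3 the knockdown arrays lay between the controls and the NU7441 arrays, and no treated array reached a control. NUSAP1 fell by 1.58 ± 0.17 (adjusted p = 0.00158), SMC2 fell by 1.99 ± 0.22 (adjusted p = 0.00187) and TTK fell by 1.29 ± 0.23 (adjusted p = 0.00501). NU7441 gave the larger fall for each of the 24 genes at an adjusted p under 0.05 of knockdown against NU7441. Against control alone, 3 of the 24 fell after knockdown and 24 with NU7441.

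DNA replication genes moved in the same direction. The list holds the MCM helicase, its loaders, the GINS complex, nucleotide synthesis enzymes and other targets of E2F factors. Of 30 listed genes 19 had a mean above 6, 18 were below both controls on all treated arrays, against 24.1% of all genes, and 18 fell, against 20.8%. The median difference was -0.66, from -1.18 for CCNE2 to -0.45 for GINS4. MCM3, a subunit of the replicative helicase, read 8.67 and 8.67 on the control arrays, 6.95 and 7.66 with NU7441 and 8.01 and 8.03 after knockdown. The flap nuclease gene FEN1 read 10.18 and 10.22 on the control arrays, 9.22 and 9.46 with NU7441 and 9.74 and 9.71 after knockdown, and GINS1, of the GINS complex, read 8.80 and 8.89 on the control arrays, 6.61 and 7.42 with NU7441 and 8.40 and 8.32 after knockdown. In each gene the knockdown arrays lay close together, between the other groups. MCM3 differed from control by -1.36 with NU7441 and -0.65 after knockdown (adjusted p of their mean 0.00597), and the mean differences were -0.66 ± 0.09 for FEN1 and -1.16 ± 0.21 for GINS1. After median centring 12 of the 19 passed and 10 were 1-sided, and without control replicate 1 or 2, 6 passed. FEN1, PCNA, RRM1, RRM2 and TYMS held in every setting.

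The promoters of these lists were searched for motifs known from genes of their kind. The RefSeq windows (GRCh38.p14) run from 250 bases before to 50 after the annotated start, and both strands were read. The cell cycle homology region (TTTGAA or TTCGAA), known in promoters of mitotic genes, was in 16 of 21 mitosis promoters (76.2%), against 16.6% of all 27305 RefSeq windows, 12.2% of genes with a mean above 6, 9.84% of 1-sided higher genes and 17.8% of 1-sided lower genes. The CCAAT box (CCAAT) was also in 16 of the 21, against 35.7% of all windows. The E2F motif (TTTGGCGC or TTTCCCGC) was in 9 of 14 replication promoters (64.3%), against 2.31% of all windows and 4.76% of the mitosis windows. Motifs of different kinds do not contain each other, though neighbouring matches can share bases. The amino acid response motif (TGATGCAA or TGATGAAA) was in 2 of 6 ATF4 list windows, against 2% of all, and the sterol motif (TCACCCCAC or TCACNCCAC) in 0 of 8 cholesterol windows, against 1.15%. The metal response motif (TGCACNC or TGCGCNC) was in 29.3% of all windows and 40.6% of those of genes with a mean above 6. These lists were known to hold such promoters, and a match is a description of letters, not of binding.

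**Figure D2:**
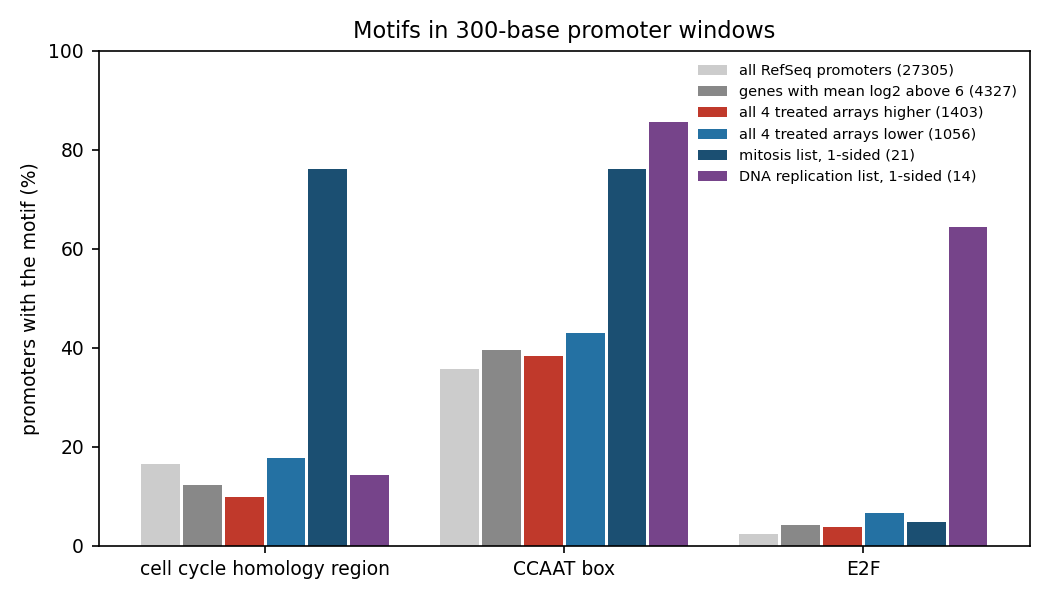
Percent of 300-base promoter windows that hold each motif (vertical axis), for all RefSeq windows, for genes with a mean log2 above 6, for 1-sided higher and lower genes, and for the 1-sided members of the mitosis and DNA replication lists; the number of windows is in the key. The cell cycle homology region stands at 76.2% in the mitosis list and the E2F motif at 64.3% in the replication list, while the sets of all higher and all lower genes lie much closer to the background.

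Windows are shown for the members with the largest gaps that have an entry with a motif hit. They show how differently the motifs are placed and were chosen after the values were seen. FEN1, whose gap was larger than that of GINS1, had neither the E2F motif nor the CCAAT box and is left out. For NUSAP1 (chr15:41332631-41332930, +) and SMC2 (chr9:104094059-104094358, +) capitals mark the cell cycle homology region and the CCAAT box. For MCM3 (chr6:52284693-52284992, -) and GINS1 (chr20:25407423-25407722, +) they mark the E2F motif and the CCAAT box, on either strand.
NUSAP1: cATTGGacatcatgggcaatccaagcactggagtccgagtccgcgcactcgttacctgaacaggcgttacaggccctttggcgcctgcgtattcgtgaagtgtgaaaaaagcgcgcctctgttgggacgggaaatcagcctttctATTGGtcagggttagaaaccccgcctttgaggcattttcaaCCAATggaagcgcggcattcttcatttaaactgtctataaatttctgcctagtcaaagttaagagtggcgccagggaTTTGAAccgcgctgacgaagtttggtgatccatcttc
SMC2: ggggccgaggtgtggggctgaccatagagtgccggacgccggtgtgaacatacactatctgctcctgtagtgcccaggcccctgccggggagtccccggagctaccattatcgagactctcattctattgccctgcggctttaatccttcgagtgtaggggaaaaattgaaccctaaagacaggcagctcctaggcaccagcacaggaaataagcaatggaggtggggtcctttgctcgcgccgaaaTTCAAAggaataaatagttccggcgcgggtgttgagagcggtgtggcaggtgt
MCM3: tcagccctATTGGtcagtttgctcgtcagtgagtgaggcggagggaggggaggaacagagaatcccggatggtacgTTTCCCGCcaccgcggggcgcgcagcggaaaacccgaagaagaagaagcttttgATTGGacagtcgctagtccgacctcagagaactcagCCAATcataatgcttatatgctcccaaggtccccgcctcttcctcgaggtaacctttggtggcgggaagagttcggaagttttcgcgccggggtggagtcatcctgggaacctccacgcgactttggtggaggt
GINS1: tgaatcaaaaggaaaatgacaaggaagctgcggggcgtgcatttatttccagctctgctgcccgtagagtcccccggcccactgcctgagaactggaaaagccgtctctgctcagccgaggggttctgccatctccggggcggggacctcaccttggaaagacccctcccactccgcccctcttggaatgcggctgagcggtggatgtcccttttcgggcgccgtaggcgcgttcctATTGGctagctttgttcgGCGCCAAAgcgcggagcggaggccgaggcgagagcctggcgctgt
NUSAP1 has 3 CCAAT boxes and 1 cell cycle homology region, which begins 14 bases after the start. It also holds 1 E2F motif, left in lower case here, and is the only one of the 21 mitosis windows with that motif. SMC2 has 1 such region, just before the start (offset -3), and no CCAAT box. MCM3 has its E2F motif upstream of the start (offset -174) with 3 CCAAT boxes, and GINS1 has both motifs close to the start.

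Most recombination genes were lower. In the homologous recombination and Fanconi list, whose products repair breaks from the sister chromatid, 8 of 10 measured genes were below both controls (24.1% of all genes) and 7 fell (20.8% of all genes), with a median of -0.92. After median centring 5 fell and 2 rose, and with either control left out none passed. MRE11, the nuclease of the complex that first processes breaks, read 7.34 and 7.33 on the control arrays, 6.16 and 6.51 with NU7441 and 6.76 and 6.50 after knockdown and fell by 0.86 ± 0.17. EXO1, a nuclease that extends resection, fell by 1.32 ± 0.26. RAD54L passed the filter only through its control arrays, and without it 6 of 9 genes of the list fell, with a median of -0.91. None of the 7 held in every setting. In the list of the DNA-PK complex and end joining 2 of 6 fell, which is near the share of all genes, and 1 with either control left out. XRCC5, which encodes the larger Ku subunit that DNA-PKcs binds, differed from control by -1.44 with NU7441 and -0.42 after knockdown. The knockdown arrays lay closer to the controls than the NU7441 arrays did. XRCC5 fell by 0.93 ± 0.12 (adjusted p = 0.00218) and held in every setting, and RIF1, which protects ends from resection, fell by 0.86 ± 0.19.

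The list of PI3K-like kinases, which also holds assembly factors and checkpoint kinases, did not move as a block. Of its 9 measured genes 3 rose and 3 fell, against 26.7% and 20.8% of all genes. These calls were sensitive to leaving out a control. The genes that fell, CHEK1, CHEK2 and TTI1, are not PI3K-like kinases themselves. MTOR, the kinase of the growth pathway, rose by 0.45 ± 0.14 (adjusted p = 0.0275). RUVBL2, which helps assemble these kinases, rose by 0.34 ± 0.11, and TTI1, of the complex that stabilises them, fell by 0.62 ± 0.20. The checkpoint kinase CHEK1 read 8.49 and 8.40 on the control arrays, 6.82 and 6.75 with NU7441 and 7.58 and 7.79 after knockdown. It fell by 1.21 ± 0.13 (adjusted p = 0.00172) and held in every setting, while CHEK2 fell by 0.80 ± 0.16 and did not. Of 8 cyclin-dependent kinase genes and regulators 4 fell, against 20.8% of all genes. After median centring 2 fell and 1 rose, with either control left out none fell, and none of the 4 held in every setting. WEE1, which holds CDK1 inactive, fell by 0.68 ± 0.13, CDC25B, which activates it, fell by 0.84 ± 0.14, and CDK4 fell by 0.52 ± 0.10. CCND1, its cyclin partner, was above both controls on all treated arrays at 0.41 ± 0.18 but missed the threshold (adjusted p = 0.0907). In the histone list the 4 measured genes were NASP, ASF1A, ASF1B and HMGB2, none of which is a histone gene. Of these 4 genes 3 fell, against 20.8% of all genes, or 2 without ASF1B, which passed the filter only through its control arrays. NASP fell by 0.82 ± 0.27, ASF1B fell by 1.18 ± 0.20 and HMGB2 fell by 0.66 ± 0.18. With either control left out none of these 3 passed.

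**Figure D3:**
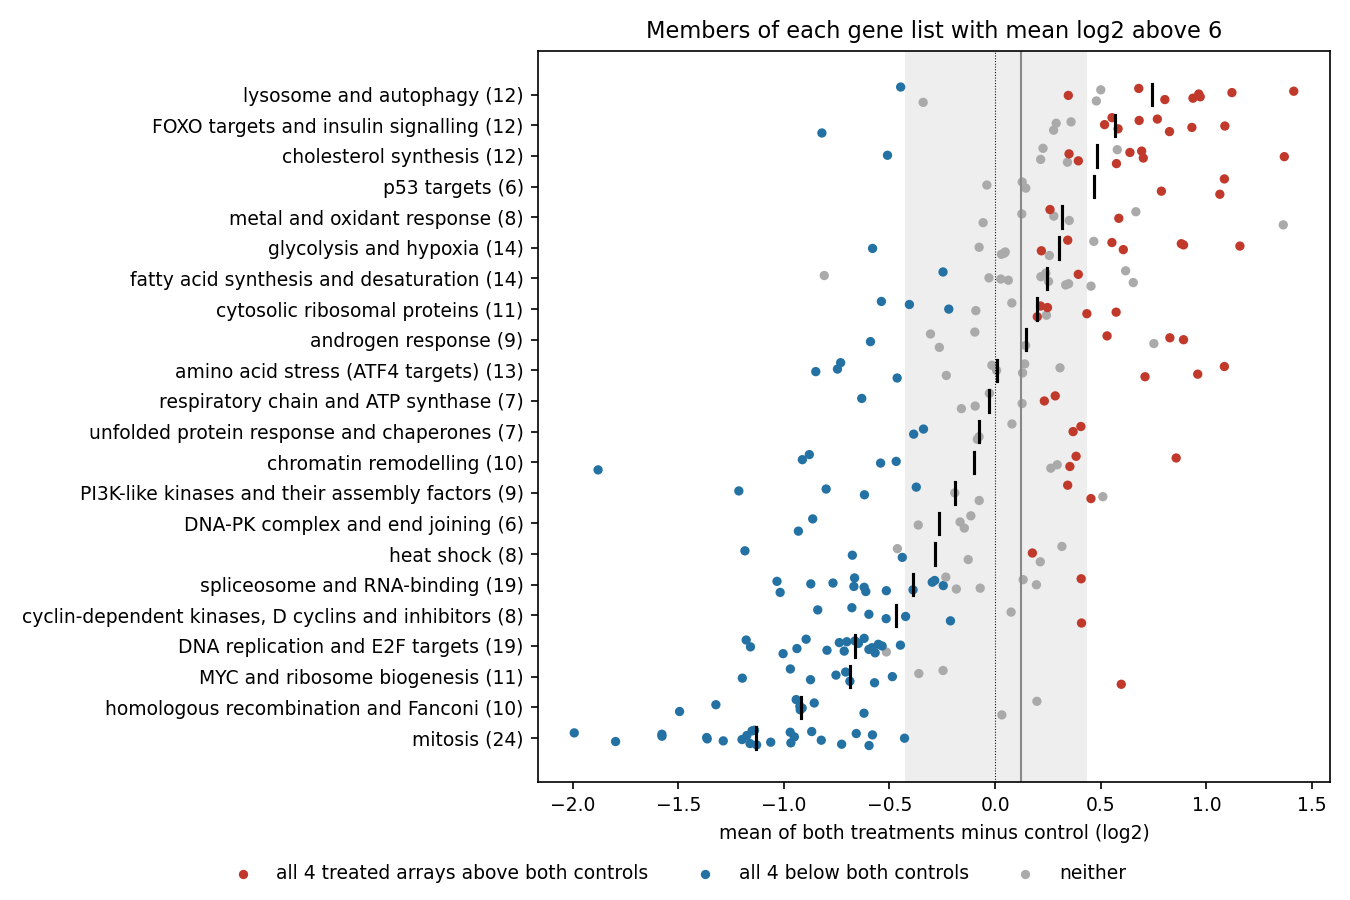
Difference between the mean of both treatments and control in log2 (horizontal axis) for each member of lists with at least 6 genes of mean log2 above 6, with the number of genes in parentheses; red and blue points have all 4 treated arrays above or below both controls, grey points neither, and black bars are list medians. The grey band spans the middle of all 5195 genes, from the lower to the upper quartile, around a median of 0.12 (grey line); the mitosis median is -1.13 and the lysosome median 0.74.

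Most ribosome biogenesis genes fell, while MYC, a known driver of them, rose, chiefly with NU7441. Of 11 measured genes in this list 7 fell (20.8% of all genes) and 1 rose, with a median of -0.69. After median centring 5 fell, and with either control left out 4 fell. MYC read 8.50 and 8.37 on the control arrays, 9.68 and 9.35 with NU7441 and 8.53 and 8.56 after knockdown. The knockdown arrays of MYC lay just above the controls and the NU7441 arrays well above, and the difference was 0.60 ± 0.12 (adjusted p = 0.00699). NOP16 fell by 1.20 ± 0.16, FBL, the methyltransferase of box C/D particles, fell by 0.69 ± 0.07 and nucleolin, NCL, fell by 0.57 ± 0.07. FBL, NCL, NOP16 and NOP58 held in every setting, and MYC did not. The median of cytosolic ribosomal protein genes was 0.20, and it was 0.17 without control replicate 1 and 0.20 without control replicate 2. Their calls were split, with 6 of 11 rising (26.7% of all genes) and 3 falling (20.8%). This split rested on scaling and on the controls: after median centring 8 rose and 1 fell, and the median went from 0.20 to 0.42, with no mean-variance trend 2 rose and 2 fell, and with either control left out none rose and 2 fell. RPL18 rose by 0.43 ± 0.08, RPL22 by 0.57 ± 0.13 and RPS3 by 0.25 ± 0.05, while RPS24 fell by 0.54 ± 0.08 and RPS18 fell by 0.41 ± 0.05. RPL35 fell by 0.22 ± 0.04 after quantile normalization and was 0.02 higher after median centring. RPS27 and RPL37A are ribosomal protein genes chosen after their values were seen. RPS27 read 12.20 and 12.28 on the control arrays, 11.33 and 11.48 with NU7441 and 11.21 and 11.03 after knockdown. RPL37A read 10.63 and 10.58 on the control arrays, 9.83 and 9.87 with NU7441 and 9.97 and 9.84 after knockdown. In both the treated arrays lay well below the controls. RPS27 fell by 0.98 ± 0.06 (adjusted p = 0.000323, and 0.0329 in the 2-group fit), RPL37A fell by 0.73 ± 0.07 (adjusted p = 0.00139), and both held in every setting.

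Splicing and RNA-binding genes were mostly lower: of 19 measured, 13 lay below both controls on all treated arrays (24.1% of all genes), 10 fell (20.8%) and 1 rose, with a median of -0.39. CLK1 passed the filter only through its control arrays. Of the other 18 genes 12 lay below both controls and 10 fell, with a median of -0.34. HNRNPC, a binder of nascent transcripts, read 8.10 and 8.24 on the control arrays, 7.30 and 7.46 with NU7441 and 7.41 and 7.45 after knockdown. Both treatments of HNRNPC reached nearly the same level, and it fell by 0.77 ± 0.13 (adjusted p = 0.00402). HNRNPR fell by 1.03 ± 0.17, U2AF1, which recognises the 3′ splice site, fell by 1.02 ± 0.13, and RBM39 rose by 0.41 ± 0.11. The calls rested on scaling and on the controls, while the median was -0.37 without control replicate 1 and -0.35 without control replicate 2. After median centring 5 fell and 3 rose, with a median of -0.11, and with either control left out 1 fell. U2AF1 held in every setting. Of 10 chromatin genes 5 fell and 2 rose, against 20.8% and 26.7% of all genes. Without control replicate 1 or 2, 1 and 2 fell. The maintenance methyltransferase DNMT1 fell by 0.91 ± 0.15 and the deacetylase HDAC2 fell by 0.88 ± 0.20, and HDAC1 rose by 0.38 ± 0.10. The demethylase KDM5B rose by 0.86 ± 0.12 and held in every setting. ARID1A was above both controls at 0.35 ± 0.22 with an adjusted p of 0.2. The median of this list was -0.10, and 0.13 after median centring. ARID1A passed the filter only through its treated arrays, and without it the median after quantile normalization was -0.47.

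Lysosomal genes had the highest median of the 26 pathway lists at the threshold used. The p53 list was higher among genes with a mean above 7 (1.06 for its 3 genes, against 0.58) and with the offset of 16 taken off (1.00 for its 4 genes, against 0.92). Lysosomes break down material delivered by autophagy and endocytosis, and their enzymes are under the control of TFEB and related factors. Of 12 measured genes 8 lay above both controls on all treated arrays and 9 rose, against 26.7% of all genes tested, with a median of 0.74 and a range up to 1.41 for GRN. GRN and NEU1 passed the filter only through their treated arrays, and of the other 10 genes 7 rose, with a median of 0.59. HEXA, a subunit of beta-hexosaminidase, read 6.54 and 6.57 on the control arrays, 7.70 and 7.73 with NU7441 and 7.32 and 7.33 after knockdown. GRN, which encodes the lysosomal protein progranulin, read 5.89 and 5.93 on the control arrays, 7.65 and 7.89 with NU7441 and 6.66 and 7.11 after knockdown, and the protective protein gene CTSA read 6.67 and 6.57 on the control arrays, 7.26 and 7.69 with NU7441 and 7.39 and 7.35 after knockdown. The arrays of each gene left a clear space between control and treated. HEXA rose by 0.96 ± 0.13 (adjusted p = 0.0024), GRN by 1.41 ± 0.18 (adjusted p = 0.00202) and CTSA by 0.80 ± 0.16 (adjusted p = 0.00728). Because GRN entered the test only through its treated arrays, its calls in this and every other setting describe the selection. TFEB itself was below both controls on all treated arrays, at -0.45 ± 0.20, without passing the threshold (adjusted p = 0.0977). With either control left out 3 of the 12 rose, and HEXA and GRN held in every setting.

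Genes of FOXO factors and insulin signalling were also mostly higher, with 8 of 12 rising, against 26.7% of all genes, and a median of 0.57. The median was 0.65 without control replicate 1 and 0.53 without control replicate 2. Of the 9 that did not pass the filter through their high group alone, 6 rose. IGF1R, the receptor of insulin-like growth factors, read 5.80 and 5.88 on the control arrays, 7.17 and 6.65 with NU7441 and 6.35 and 6.50 after knockdown and rose by 0.83 ± 0.20. TSC2, a brake on mTOR complex 1, rose by 0.77 ± 0.18 and KLHL24 by 0.93 ± 0.19. FOXO1 was lower on all treated arrays at -0.82 ± 0.35 and missed the threshold (adjusted p = 0.0823), with NU7441 replicate 2 near the controls. These calls rested on the controls: without control replicate 1, 1 gene of the list rose, without control replicate 2 none did, and no member held in every setting.

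Cholesterol synthesis genes rose in 8 of 12 cases, against 26.7% of all genes, and fell in 1, with a median of 0.48. By array, the median distance from control was 0.82 and 0.83 with NU7441 and 0.15 and 0.07 after knockdown. TM7SF2, a sterol reductase, read 6.62 and 6.64 on the control arrays, 8.78 and 8.60 with NU7441 and 7.02 and 7.60 after knockdown. HMGCS1, which makes the substrate of the rate-limiting reductase, read 8.30 and 8.31 on the control arrays, 9.24 and 9.30 with NU7441 and 8.53 and 8.44 after knockdown. In both, the knockdown arrays lay between the controls and the NU7441 arrays. TM7SF2 rose by 1.37 ± 0.18, HMGCS1 by 0.57 ± 0.10 and DHCR7, the last enzyme of the pathway, by 0.70 ± 0.13. EBP, a sterol isomerase, fell by 0.51 ± 0.09. With no mean-variance trend 5 rose. With either control left out 2 of the 12 rose, and TM7SF2 and INSIG1 held in every setting. In the fatty acid list 8 of 14 rose in the contrast, against 26.7% of all genes, but only 1 was higher on all 4 treated arrays and 1 lower. With no mean-variance trend 4 rose, and with either control left out none did. FASN, the fatty acid synthase, read 7.88 and 7.79 on the control arrays, 8.87 and 8.98 with NU7441 and 7.68 and 7.64 after knockdown, and the desaturase SCD read 10.29 and 10.08 on the control arrays, 11.00 and 11.07 with NU7441 and 9.94 and 9.72 after knockdown. Their NU7441 arrays were high and their knockdown arrays low, so that the mean of the treatments describes neither. ELOVL7 rose by 0.39 ± 0.09, and HACD3 was lower on all treated arrays at -0.25 ± 0.12 without passing the test (adjusted p = 0.11).

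Hypoxia and glycolysis genes rose in 7 of 14 cases, against 26.7% of all genes, and fell in 1, with a median of 0.30. VEGFA passed the filter only through its treated arrays, and of the other 13 genes 7 rose, with a median of 0.26. Besides ANKRD37, NDRG1, which responds to both hypoxia and androgen, read 6.77 and 7.12 on the control arrays, 7.87 and 7.80 with NU7441 and 7.98 and 7.70 after knockdown. The 4 treated arrays of NDRG1 lay close together and above both controls. It rose by 0.89 ± 0.16 (adjusted p = 0.00472), the glycolytic kinase gene PGK1 by 0.61 ± 0.12, and the mutase gene PGAM1 fell by 0.58 ± 0.10. With either control left out 1 gene rose. Of 7 respiratory chain genes 2 rose, about the share of all genes, COX6C by 0.28 ± 0.08 and COX4I1 by 0.23 ± 0.05, and COX5A fell by 0.63 ± 0.14. Without control replicate 1 none of the 7 rose, and without control replicate 2, 1 did.

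**Figure D4:**
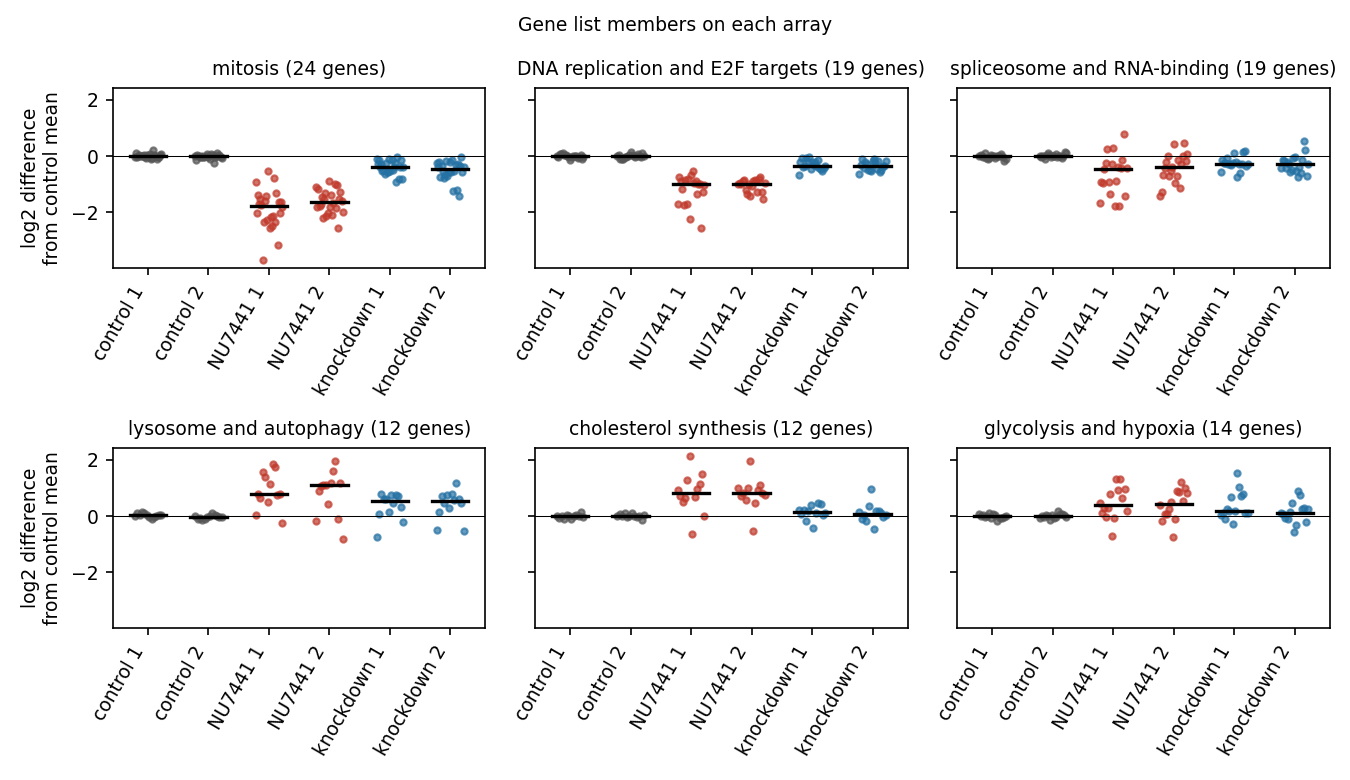
Log2 distance of each list member from its control mean (vertical axis) on each of the 6 arrays (horizontal axis) for 6 lists, with black bars for list medians; grey is control, red NU7441 and blue knockdown. The medians of mitosis genes are -1.76 and -1.64 on the NU7441 arrays and -0.38 and -0.46 on the knockdown arrays, while those of lysosomal genes are 0.77 and 1.09 and then 0.53 and 0.52.

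In the ATF4 list, which holds the transcriptional response to amino acid shortage, 3 of 13 rose and 2 fell, with a median of 0.01. These shares are no higher than the 26.7% and 20.8% of all genes. After median centring 5 rose and none fell. ASNS, asparagine synthetase, read 9.48 and 9.22 on the control arrays, 9.91 and 9.99 with NU7441 and 10.18 and 10.16 after knockdown. The knockdown arrays of ASNS were the highest, and it rose by 0.71 ± 0.09 (adjusted p = 0.00198). DDIT3, the factor CHOP, rose by 0.96 ± 0.23. It passed the filter only through its treated arrays, and of the other 12 genes of the list 2 rose and 2 fell. The gene of the factor itself, ATF4, read 9.95 and 9.93 on the control arrays, 9.48 and 9.56 with NU7441 and 9.54 and 9.34 after knockdown and fell by 0.46 ± 0.08, and PSPH, of serine synthesis, fell by 0.75 ± 0.25. AARS1 was below both controls at -0.73 ± 0.28 but did not pass the threshold (adjusted p = 0.0598). GDF15 and ASNS held in every setting.

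Of 8 heat shock genes 3 fell, and 2 with either control left out. HSPD1, the mitochondrial chaperonin, read 10.60 and 10.54 on the control arrays, 8.86 and 9.42 with NU7441 and 9.73 and 9.54 after knockdown and fell by 1.18 ± 0.15 (adjusted p = 0.00197). HSPH1 fell by 0.68 ± 0.07 and HSPA4 fell by 0.44 ± 0.13, while HSPB1 was above both controls at 0.18 ± 0.09 (adjusted p = 0.127). HSPD1 and HSPH1 held in every setting. Among all genes 26.7% rose and 20.8% fell, which is the background for each list count of this paragraph. Of 7 genes of the unfolded protein response SEL1L rose by 0.41 ± 0.14, CALR fell by 0.39 ± 0.07 and MANF fell by 0.34 ± 0.11, and none of these passed with either control left out. CRELD2 was above both controls at 0.37 ± 0.14 (adjusted p = 0.0572). Thus 1 of the 7 rose and 2 fell, not far from the shares of all genes. In the p53 list 3 of 6 rose (2 with either control left out), namely GDF15, SESN1 by 0.79 ± 0.14 and TP53INP1. In the metal and oxidant list 3 of 8 rose, against none without control replicate 1 and 1 without control replicate 2. Its genes HMOX1 at 0.59 ± 0.22 (adjusted p = 0.0531) and GSTM1 at 0.26 ± 0.11 (adjusted p = 0.0907) were above both controls without passing. HMOX1 entered the test only through its treated arrays. MT1F, a metallothionein gene outside the 1-sided set, read 6.32 and 6.58 on the control arrays, 5.97 and 6.86 with NU7441 and 9.25 and 9.17 after knockdown, and was high on the knockdown arrays (knockdown minus NU7441 2.79 ± 0.27, adjusted p = 0.00133).

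The smaller signalling lists gave calls in both directions, set against 26.7% higher and 20.8% lower among all genes. In the immediate early list DUSP1 passed the filter only through its treated arrays, and of the other 4 genes 2 rose. In the interferon list IRF7 did too, and of the other 2 genes 1 rose and 1 fell. Among 9 androgen response genes 4 rose and 1 fell, and without control replicate 1 or 2, 1 and 3 rose and none fell. HERC3 rose by 0.83 ± 0.13 and ZBTB10 by 0.53 ± 0.09. FKBP5, a co-chaperone of steroid receptors and a known androgen receptor target, read 8.95 and 8.94 on the control arrays, 7.96 and 8.24 with NU7441 and 8.49 and 8.71 after knockdown and fell by 0.59 ± 0.12 (adjusted p = 0.00831), on all treated arrays and most with NU7441. Among 5 immediate early genes 3 rose, DUSP1, JUNB by 0.91 ± 0.19 and JUND by 0.20 ± 0.06, and none with either control left out. Of 3 interferon genes the factor IRF7 rose by 1.11 ± 0.22 and ISG15 by 0.54 ± 0.11, and EIF2AK2, the kinase that senses double-stranded RNA, read 7.13 and 6.99 on the control arrays, 6.03 and 6.09 with NU7441 and 6.06 and 6.11 after knockdown. All treated arrays of EIF2AK2 lay at nearly the same level, and it fell by 0.99 ± 0.16 (adjusted p = 0.00378). No gene of the interferon list held in every setting.

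Of the marker lists, 1 of 5 luminal genes with a mean above 6 rose, with a median of 0.04. The single basal gene and the single neuroendocrine gene above that mean fell, and the single leukocyte gene did not pass. SOX2, a stem cell factor that is also used as a neuroendocrine marker, was the only measured marker of its list of 11 with a mean above 6 and read 9.48 and 9.30 on the control arrays, 6.95 and 6.22 with NU7441 and 8.98 and 8.78 after knockdown. It fell by 1.65 ± 0.20 (adjusted p = 0.00193). The summed deposited intensity of the 9 named neuroendocrine markers was 885 to 958 on the controls, 257 to 283 with NU7441 and 643 to 726 after knockdown, and only SOX2 exceeded 64 on any array. The luminal keratin KRT8 rose by 0.47 ± 0.16 (adjusted p = 0.0434), a call that was lost on the intensities as deposited, with the replicate block and with either control or either knockdown array left out. The other 4 measured luminal genes were not 1-sided, and the luminal sum was 2488 to 2494 on the controls, 2985 to 3247 with NU7441 and 2319 to 2454 after knockdown. The basal gene DST fell by 0.96 ± 0.20. It entered the test only through its control arrays, so its fall describes the selection. The sums of 6 basal markers were 244 to 263, 170 to 207 and 176 to 185 in the same order. In these bulk samples, fewer cells of a type and less RNA per cell cannot be told apart.

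The treatments were also compared directly with each other, with the control arrays contributing to the estimate of the spread. Knockdown differed from NU7441 for 1614 of 5195 genes (31.1%) and for 865 of the 2932 1-sided genes (29.5%). Among the 865, NU7441 lay farther from control in 852 and knockdown in 13. This count was sensitive to single arrays: without knockdown replicate 1, 89 of all genes passed the test, without knockdown replicate 2, 282, and without NU7441 replicate 2, 3075. Without control replicate 1 or 2 it was 822 and 819. A gene that missed the test is not shown to respond alike.

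Within the 1-sided set the largest called differences were in lower genes. SOX2 (above) differed by 2.29 ± 0.23 (adjusted p = 0.00133). The spindle checkpoint gene MAD2L1 read 8.41 and 8.41 on the control arrays, 4.72 and 6.20 with NU7441 and 7.91 and 7.62 after knockdown, and the mitotic kinase gene PBK read 8.93 and 8.99 on the control arrays, 5.91 and 6.71 with NU7441 and 8.67 and 8.45 after knockdown. In both, the NU7441 arrays were the lowest. CBLN1, a cerebellin, read 8.91 and 8.87 on the control arrays, 6.30 and 6.01 with NU7441 and 8.42 and 8.34 after knockdown. RORB, a nuclear receptor, read 8.70 and 8.83 on the control arrays, 6.67 and 5.98 with NU7441 and 8.54 and 8.52 after knockdown. In each gene the NU7441 arrays lay far below the knockdown arrays, which were themselves below the controls. The gaps ran from 0.15 for RORB to 0.50 for MAD2L1. The knockdown minus NU7441 difference was 2.31 ± 0.40 for MAD2L1, 2.25 ± 0.24 for PBK, 2.23 ± 0.15 for CBLN1 and 2.21 ± 0.22 for RORB. Among higher genes it was -1.53 ± 0.13 for TP53INP1, -1.52 ± 0.15 for SYCE3, of the synaptonemal complex, -1.38 ± 0.21 for TM7SF2, -1.28 ± 0.22 for CFAP69, a gene of cilia, and -1.27 ± 0.20 for GRB10, an adaptor of the insulin receptor. TP53INP1, a p53 target, read 8.04 and 7.83 on the control arrays, 9.81 and 9.72 with NU7441 and 8.15 and 8.31 after knockdown. The knockdown arrays of TP53INP1 were close to the controls, and the treatments together gave 1.06 ± 0.11.

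Of the 13 genes where knockdown lay farther, S100P, a calcium-binding protein, read 6.31 and 6.16 on the control arrays, 6.53 and 6.40 with NU7441 and 7.69 and 7.34 after knockdown, and the neuropeptide gene NMB read 5.88 and 5.71 on the control arrays, 5.97 and 6.09 with NU7441 and 7.05 and 6.97 after knockdown. In both genes the NU7441 arrays lay just above the controls and the knockdown arrays far above. The difference was 1.05 ± 0.19 for S100P (adjusted p = 0.00789) and 0.98 ± 0.20 for NMB (adjusted p = 0.0106). RPS27, LUC7L2, PRRC2C, TBK1 and YLPM1 were the lower genes of this kind, and ADPRM, ALG14, EMC3, SYT4, TIMM8B and WARS1 the other higher ones. These 13 were named after their values were seen.

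The genes with the smallest difference between treatments, and a change of at least 0.5, were selected for that and are given as a description. Among higher genes they were TMEM208, of the endoplasmic reticulum, which read 8.47 and 8.55 on the control arrays, 9.22 and 9.38 with NU7441 and 9.25 and 9.34 after knockdown, the PP2A methyltransferase gene LCMT1 (0.67 ± 0.16), the cargo receptor gene TMED10 (0.56 ± 0.15), VPS9D1 (0.78 ± 0.19) and the vesicle SNARE gene VAMP7 (0.62 ± 0.12). Among lower genes they were the remodeller gene CHD1 (-0.73 ± 0.21), the splicing gene SNRNP27 (-0.68 ± 0.18), TMEM106C (-0.53 ± 0.18), CEP72 (-0.74 ± 0.22) and UBN2 (-0.83 ± 0.25). TMEM208 rose by 0.78 ± 0.09 and held in every setting.

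**Figure D5:**
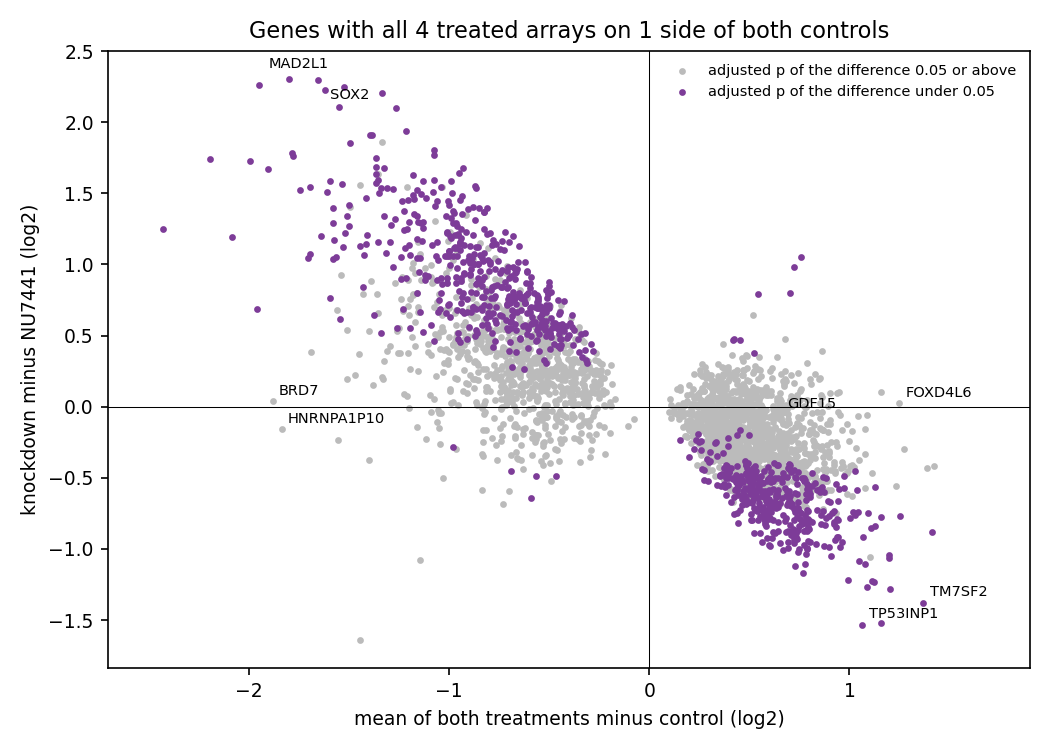
Knockdown minus NU7441 (vertical axis, log2) against the mean of both treatments minus control (horizontal axis, log2) for the 2932 1-sided genes; purple points have an adjusted p under 0.05 for the vertical axis. Both axes use the treated arrays, so their relation is partly built in; BRD7 and GDF15 lie near 0 on the vertical axis, and SOX2 and MAD2L1 at 2.29 and 2.31.

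Shorter genes were more often higher. The median span of a gene on the genome, from RefSeq (GRCh38.p14), was 24.1 kb for the 1678 higher genes, 31.2 kb for the 1254 lower and 29.0 kb for all 5195. In the shortest of 5 equal groups by span, up to 8.73 kb, 38.3% of genes were higher and 19.6% lower. From 40.8 to 83.9 kb, 28.3% were higher and 27.5% lower. In the longest group 30.3% were higher and 21.8% lower. Promoter GC content differed little, with medians of 65.3% for higher and 64.7% for lower genes. Protein-coding genes made up 1586 of the higher and 1199 of the lower genes.

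The edges of the selection hold many genes. There were 382 1-sided genes with a gap of at most 0.05 and 324 genes that missed a gap by at most 0.05. A gap of at least 0.5 was found for 120 higher and 218 lower genes, and of at least 1 for 3 and 16. The mean intensity threshold lay between MIIP at 6.0006 and SAE1 at 5.9994. Of the 245 genes just above it, 49.4% were 1-sided, and of the 239 just below it, 46.9% were. Another 260 genes passed the test with treated arrays on both sides of a control.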

How the data were processed

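The authors deposited linear intensities, 1 per probeset and array, for 44629 probesets of 6 Affymetrix Human Gene 2.0 ST arrays. Trizol RNA was amplified with the Ovation Pico WTA V2 system and labelled with biotin, per the labels' protocols. How probesets were summarised and on which genome build is not given in the sources used. Of the probesets 15835 had 1 symbol in the platform annotation and 28794 were unnamed.

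Intensities were converted to log2 and quantile normalized over all probesets. The brightest of several probesets stood for each of 651 genes. Genes with a mean log2 above 6 went into limma 3.58.1 (R 4.3.3; 1 mean per group, mean-variance trend, two-sided, 3 residual degrees of freedom, Benjamini-Hochberg over 5195 genes, threshold 0.05). The arrays' number limits the precision. The procedure was tested on simulated data. Promoter motifs were counted with Python 3.11.15. The alternatives were other scalings, filters, an offset of 16, probeset means, no trend, a 2-group fit, a replicate block and leaving out each array. Same-numbered replicates did not deviate together (correlations 0.00 for control and NU7441, -0.04 for control and knockdown, -0.17 for NU7441 and knockdown), so numbers were not taken as pairs.

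Named genes were the 14 higher and 14 lower called 1-sided genes with the largest gap (leaving out LOC symbols, unnamed reading frames, pseudogenes and small RNAs), up to 3 per direction in each list, and the 5 per direction with the smallest or largest difference between treatments. The genes, lists and comparisons were chosen with earlier results of these data known. Some genes the rule named, and a gene list, are not reported here.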

Additional observations from a re-analysis of the deposited data

Results flagged for a closer look

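For 10 named genes the 2 treatments differed in size by a direct test (limma, adjusted p under 0.05), knockdown minus NU7441, with all 4 treated arrays on the same side of the controls. The difference was 2.31 for MAD2L1, 2.29 for SOX2, 2.25 for PBK, 2.23 for CBLN1 and 2.21 for RORB, which were lower in both treatments. It was -1.53 for TP53INP1, -1.52 for SYCE3, -1.38 for TM7SF2, -1.28 for CFAP69 and -1.27 for GRB10, which were higher in both. These genes were selected for the size of this difference.

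Probesets without a gene name lay outside the comparisons above. Of 4025 unnamed probesets with a mean log2 above 6, 1579 (39.2%) were 1-sided and passed the test of both treatments against control, 845 higher and 734 lower. What these probesets measure was not analysed here.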

How the results depend on the processing

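The count of genes called for both treatments against control was 2472, and 3 in the 2-group fit. Leaving out 1 array gave 296 to 3711. For NU7441 against control (3165) the count was 2073 with genes above a mean log2 of 7, and 1452 to 3916 without 1 array. For knockdown against control (372) it was 103 on the intensities as deposited, 852 after median centring, 200 with no filter on dim genes, 18 with no mean-variance trend and 110 with the replicate block, and 2 to 2215 without 1 array. For knockdown against NU7441 (1614) it was 1316 with the replicate block, 1651 with the crossed pairing, an alternative chosen after seeing the data, and 89 to 3075 without 1 array. The 1-sided set (2932) had 5762 genes with no filter and 1793 above a mean of 7, where fewer genes were tested, and 3112 to 3420 without 1 array. RPL35 turned to 0.0224 after median centring. With the replicate block both treatments against control gave 2182 calls, and 3 of the 126 named genes that passed no longer did.

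Of those 126, 7 were lost as deposited, 17 after median centring, 125 in the 2-group fit and 79 and 74 without control replicates 1 and 2. The cause was not tested. An array whose partner is left out is assumed to vary like the other groups. Dim genes are limited by the deposited floor of 16.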
